A study of Mus musculus with 4 samples.

Results

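The 36 genes described here encode proteins of homologous recombination, the Fanconi anaemia pathway, mismatch and base repair and the DNA damage checkpoint. They were chosen by name, with earlier results of these data known. Of them 35 were measured among 19938 genes, *Xrcc2*, a recombination factor, having no probe set named for it alone. The samples were whole lungs of C57BL/6 mouse embryos at E18.5, 2 labelled as biological replicates with the genotype *Hmga2*+/+ (WT) and 2 with *Hmga2*-/- (KO), none of them treated, and each was hybridised to 1 Affymetrix array. The knockout came from a strain bred with the null allele in the germline, so it was not limited to one cell type of the lung. The lung label was borne out by the arrays: *Nkx2-1*, the transcription factor that specifies lung epithelium, had log2 values of 11.31 and 11.41 in WT and 11.46 and 11.47 on the arrays labelled KO, and *Sftpc*, the surfactant protein C gene, had 14.13 and 14.05 in WT and 13.98 and 14.01 on the arrays labelled KO.

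Homologous recombination repairs a broken chromosome by copying the intact sister chromatid, and is therefore tied to S and G2 phase, when a sister exists. BRCA1 and BARD1 direct broken ends into this route, PALB2 brings in BRCA2, which prepares the ends for invasion of the sister, and RAD54 and BLM remodel the joint molecules that form. The Fanconi anaemia pathway removes links between the strands of DNA that stall replication: a nuclear core complex attaches ubiquitin to FANCD2 and FANCI, which then recruit nucleases and recombination factors. ATR with CHEK1, and ATM with CHEK2, signal stalled forks and breaks to the cell cycle. Many of these genes are known to be transcribed mostly in cycling cells, while others are expressed in cells at rest as well.

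Some facts of the whole series bear on all values below. *Hmga2* itself does not settle the labels: its probe set read 9.35 and 9.59 in WT and 9.65 and 9.39 in the arrays labelled KO (difference 0.051, SE 0.16, limma adjusted p = 0.892), and no source here says where it lies relative to the deletion. Directions are therefore given for the arrays as labelled. WT replicate 1 stood apart, with r = 0.985 to WT replicate 2 over all probe sets and 0.976 to each array labelled KO. The arrays labelled KO reached 0.997 with each other. WT replicate 2 was closer to the arrays labelled KO than to WT replicate 1, with r = 0.9935 to KO replicate 1 and 0.9924 to KO replicate 2. Markers of other cell types differed between the groups as well. All 6 measured heart muscle markers had higher means in the arrays labelled KO (summed linear level 8993 to 9768 in WT and 14335 to 16238 in KO), and *Nppa*, which encodes atrial natriuretic peptide, rose (difference 1.78, SE 0.18, limma adjusted p = 0.0172). All 7 leukocyte markers had lower means (10695 to 11723 against 4149 to 4444), 6 of 7 endothelial markers did (30273 to 31776 against 24138 to 25329), 5 of 6 erythroid markers did (4260 to 4292 against 3177 to 3355) and 9 of 14 epithelial markers did (73904 to 74670 against 54130 to 55452). Over all genes 41.2% had a higher mean in the arrays labelled KO and the rest a lower one. The summed levels weigh bright genes most. *Lyz2* (13.229 and 13.014 in WT, 11.405 and 11.324 in KO) made up most of the leukocyte sum, and *Alas2* most of the erythroid one. The median log2 difference was -0.43 over the 7 leukocyte markers and -0.096 over the 6 erythroid ones. Of the epithelial markers 3 passed limma's test, all lower (*Scgb1a1* -2.69, *Aqp5* -2.20 and *Lamp3* -1.12), where 0.702% of all genes fell. The 5 with higher means included *Epcam* (0.69), *Nkx2-1* (0.11) and *Cdh1* (0.017). The 9 mesenchymal markers were split, 6 higher and 3 lower (39320 to 41662 against 41046 to 41424). Their part in the results below was not tested. The values hold neither a 0 nor a call of presence, so no marker can be said to be absent.

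The recombination, Fanconi and checkpoint genes were higher on average in KO, as labelled, than in WT, though to different extents between roles. Of the 35 measured genes, 34 had a higher mean there, where 41.2% of all genes did, and the exception was *Fancc*. The median log2 difference was 0.64, against -0.051 over all genes, and the range ran from -0.33 for *Fancc* to 1.32 for *Chek1*. For 28 genes both arrays labelled KO lay above both WT arrays, where 17.6% of all genes did so, and for 1 gene both lay below, where 31.8% did. None of the 35 passed limma's test after adjustment over all genes, where 0.0802% of all genes rose and 0.702% fell. At an unadjusted p under 0.05, 23 were higher, against 5.88% of all genes, and 0 were lower, against 8.58%. In bulk tissue a larger share of cells that express a gene and more RNA per cell cannot be told apart. The labels and the paper call the arrays of each group biological duplicates, but the titles of both WT arrays share the name WT1 and those of KO do not share one. Nothing used here says from which embryos they came, and p values measure only the spread between these samples, which may be technical.

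The size of the median difference varied with the array left out, and its sign did not. WT replicate 1 was the lowest of the 4 arrays for 31 of the 35 genes, and KO replicate 1 was the highest for 31. The median difference was 0.76 against WT replicate 1 alone and 0.46 against WT replicate 2 alone, and 0.50 without KO replicate 1 and 0.74 without KO replicate 2. Both arrays labelled KO were above WT replicate 2 for 30 of the 35 genes, where 24% of all genes were, and above WT replicate 1 for 31, where 39.3% were. WT replicate 2 was above WT replicate 1 for 32 genes, where 58.3% of all genes were, and KO replicate 1 was above KO replicate 2 for 33, where 78.3% were. Without WT replicate 1, 19 of the 35 genes rose, where 505 of all 19938 genes rose and 1133 fell. Without WT replicate 2, 26 rose and *Fancc* fell, where 3321 of all genes rose and 2971 fell. In these fits a lone WT array is assumed to vary like the arrays labelled KO, and calls were more frequent over the whole genome than with all arrays (16 and 140). Without KO replicate 1 or KO replicate 2, 0 of the 35 passed, where 0 of all genes rose and 1 and 0 fell.

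**Figure D1:**
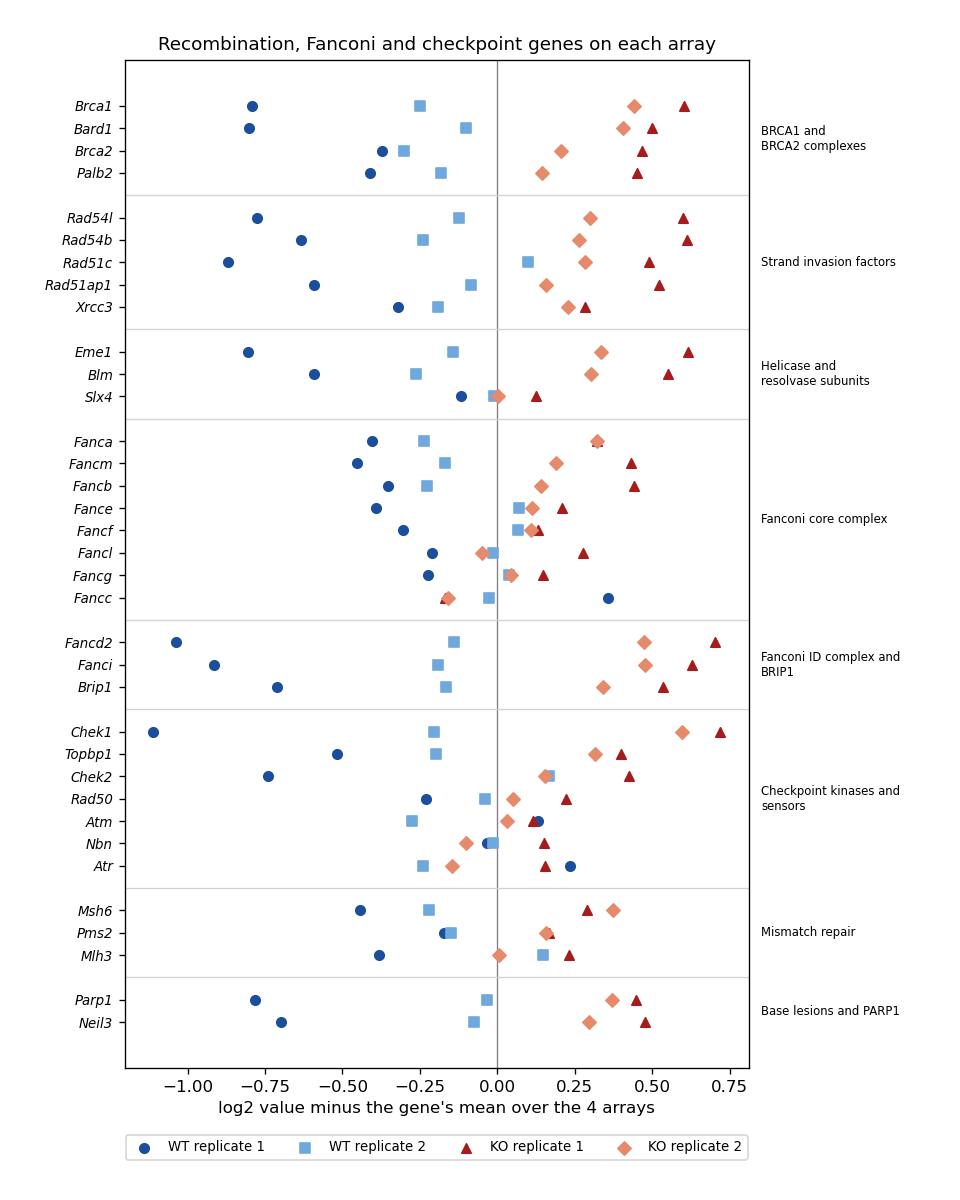
Each point is the log2 value of 1 gene on 1 array, centred on the mean of that gene over the 4 arrays (x axis), with the 35 measured genes on the y axis, ordered by role and then by difference. WT replicate 1 is the lowest point for 31 genes and KO replicate 1 the highest for 31, and *Fancc* is the gene with both KO points below both WT points.

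The genes that handle the first steps of recombination all had higher means in the arrays labelled KO, with groups that did not overlap. Of all genes 17.6% were higher without overlap. *Brca1*, which encodes a ubiquitin ligase of broken ends, had log2 values of 7.46 and 8.01 in WT, here and below replicate 1 before replicate 2, and of 8.86 and 8.69 in KO. The step from WT replicate 2 to the lower array labelled KO was thus larger than the step between the WT arrays, and the difference was 1.04 (SE 0.20, limma adjusted p = 0.0873), a fold of 2.06. *Brca2*, which prepares broken ends for strand invasion, had 8.13 and 8.20 in WT and 8.97 and 8.71 in KO. Its WT arrays lay close together, and its difference of 0.67 (SE 0.15, adjusted p = 0.110) was 0.71 and 0.64 against each WT array alone. *Bard1*, the partner of BRCA1, had a difference of 0.90 (SE 0.23, adjusted p = 0.160), and its 2 dimmer probe sets had 0.65 and 0.31, in the same direction. *Palb2*, which joins BRCA1 to BRCA2, had 0.59 (SE 0.16, adjusted p = 0.180).

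Factors that help a broken end search for and invade the sister chromatid were higher as well. All 5 measured ones had no overlap between the groups, where 17.6% of all genes were higher without overlap. *Rad54b*, a motor protein of the SWI2/SNF2 family, had 7.78 and 8.18 in WT and 9.03 and 8.68 in KO, a difference of 0.88 (SE 0.19, adjusted p = 0.114). Its paralog *Rad54l* had nearly the same difference, 0.90 (SE 0.24, adjusted p = 0.164). *Xrcc3*, a factor of strand invasion, had 8.51 and 8.64 in WT and 9.11 and 9.06 in KO, so the replicates of each group lay close together, with a difference of 0.51 (SE 0.13, adjusted p = 0.156). *Rad51c*, whose product forms a complex with XRCC3, had a larger difference, 0.77 (SE 0.30, adjusted p = 0.325), that depended on the array: it was 1.26 against WT replicate 1 and 0.29 against WT replicate 2. *Rad51ap1*, which stimulates strand invasion, had 0.68 (SE 0.21, adjusted p = 0.226).

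Of the genes that undo or cut joint molecules, a helicase and a nuclease subunit had high differences and a scaffold had a small one. *Blm*, the helicase that dissolves double Holliday junctions, had 8.25 and 8.58 in WT and 9.39 and 9.14 in KO, a difference of 0.85 (SE 0.17, adjusted p = 0.0924). *Eme1*, the partner of the nuclease MUS81, had 7.83 and 8.49 in WT and 9.25 and 8.97 in KO, with 0.95 (SE 0.23, adjusted p = 0.150). In both cases the groups stood clear of each other, where 17.6% of all genes were higher without overlap. *Slx4*, the scaffold on which several nucleases assemble, had 0.13 (SE 0.13, adjusted p = 0.660), with a 95% interval from -0.19 to 0.44.

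The Fanconi pathway was divided. *Fancd2* and *Fanci*, which encode the pair of proteins that the core complex marks with ubiquitin, were among the 4 genes with a mean at least 2-fold higher, together with *Chek1* and *Brca1*. *Fanci* had 7.38 and 8.10 in WT and 8.93 and 8.77 in KO, with a difference of 1.11 (SE 0.24, adjusted p = 0.111), and *Fancd2*, given here although the rule for values did not name it, had 6.97 and 7.87 in WT and 8.71 and 8.48 in KO, with 1.18 (SE 0.29, adjusted p = 0.146). The values of both genes were lowest by far in WT replicate 1, and against WT replicate 2 alone the differences were 0.75 and 0.73. *Brip1*, a helicase that binds BRCA1, had 8.06 and 8.60 in WT and 9.30 and 9.11 in KO, with 0.88 (SE 0.20, adjusted p = 0.131).

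The core complex itself, with 8 measured subunits, had a median difference of 0.28, where the ID pair and *Brip1* had 1.11. The test of that contrast between the roles was not made. Within the complex 3 genes had differences near 0.6. They were *Fanca*, a large scaffold subunit, with 7.85 and 8.03 in WT and 8.58 on both arrays labelled KO (0.64, SE 0.13, adjusted p = 0.102), *Fancm*, the translocase that anchors the complex to DNA, with 7.41 and 7.69 in WT and 8.29 and 8.05 in KO (0.62, SE 0.16, adjusted p = 0.163), and *Fancb*, a partner of the ligase subunit (0.58, SE 0.15, adjusted p = 0.167). For *Fanca* the replicates differed least beside the gap between the groups. *Fancl*, the ubiquitin ligase subunit, had 0.23, *Fance*, which binds FANCD2, 0.32, *Fancf*, an adaptor, 0.24, and *Fancg*, which binds FANCA, 0.19, with adjusted p from 0.450 to 0.565 and 95% intervals that all span 0, and the groups of *Fancl* overlapped. *Fancc*, which sits beside FANCE in the complex, was the one gene with a lower mean: 8.78 and 8.39 in WT and 8.25 and 8.26 in KO, a difference of -0.33 (SE 0.16, adjusted p = 0.410). Here WT replicate 1 was the high array, and the difference was -0.52 against it alone and -0.14 against WT replicate 2 alone.

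In the checkpoint, the gene of the kinase CHEK1 stood far from those of ATR and ATM, which act above it. *Chek1* had 8.14 and 9.05 in WT and 9.97 and 9.85 in KO, the largest difference of the 35 genes at 1.32 (SE 0.28, adjusted p = 0.110), or 2.49-fold. It was 1.77 against WT replicate 1 and 0.86 against WT replicate 2, so that it kept its direction with either. *Topbp1*, which activates ATR at stalled forks, had 9.96 and 10.28 in WT and 10.88 and 10.80 in KO, with 0.72 (SE 0.15, adjusted p = 0.110). *Atr*, shown although outside the rule for values, had 9.50 and 9.02 in WT and 9.42 and 9.12 in KO. Its groups overlapped, its WT arrays differed by more than its group means, and its difference was 0.00745 (SE 0.20, adjusted p = 0.990) with a 95% interval from -0.47 to 0.49. *Atm*, the kinase of double-strand breaks, had 0.14 (SE 0.17, adjusted p = 0.699), and its direction turned without WT replicate 2 (-0.059).

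The other genes of the break response were closer to *Atm* than to *Chek1*. *Chek2*, the kinase below ATM, had 7.60 and 8.51 in WT and 8.77 and 8.50 in KO, values added here for their spread. WT replicate 2 matched the lower array labelled KO, and the difference of 0.58 (SE 0.29, adjusted p = 0.417) was 1.03 against WT replicate 1 and 0.12 against WT replicate 2. *Rad50*, the long coiled-coil subunit of the complex that holds broken ends, had 0.27 (SE 0.14, adjusted p = 0.428) with groups apart. *Nbn*, its regulatory subunit, had 0.047 (SE 0.14, adjusted p = 0.892), and its second, dimmer probe set had -0.19, so the probe sets disagreed in direction.

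Mismatch repair corrects errors that polymerases leave. *Msh6*, whose product finds single mismatches, had 8.19 and 8.41 in WT and 8.92 and 9.01 in KO, a difference of 0.66 (SE 0.14, adjusted p = 0.108). *Pms2*, an endonuclease of mismatch repair, had 8.43 and 8.46 in WT and 8.77 and 8.76 in KO, which is a smaller difference (0.32, SE 0.12, adjusted p = 0.317) with the replicates almost on top of each other. *Mlh3*, which also acts in meiotic recombination, had 0.23 (SE 0.20, adjusted p = 0.601) with overlapping groups, and its difference was -0.032 without WT replicate 1. *Neil3*, a glycosylase of oxidised bases and of strand links met at forks, had 8.66 and 9.28 in WT and 9.83 and 9.65 in KO, with 0.77 (SE 0.22, adjusted p = 0.190). *Parp1*, the sensor of strand breaks that makes poly(ADP-ribose), had 9.21 and 9.95 in WT and 10.44 and 10.36 in KO, with 0.82 (SE 0.24, adjusted p = 0.208). The groups of both genes stood apart, where 17.6% of all genes were higher without overlap. The mean of the arrays labelled KO lay 0.46 and 0.44 above WT replicate 2.

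**Figure D2:**
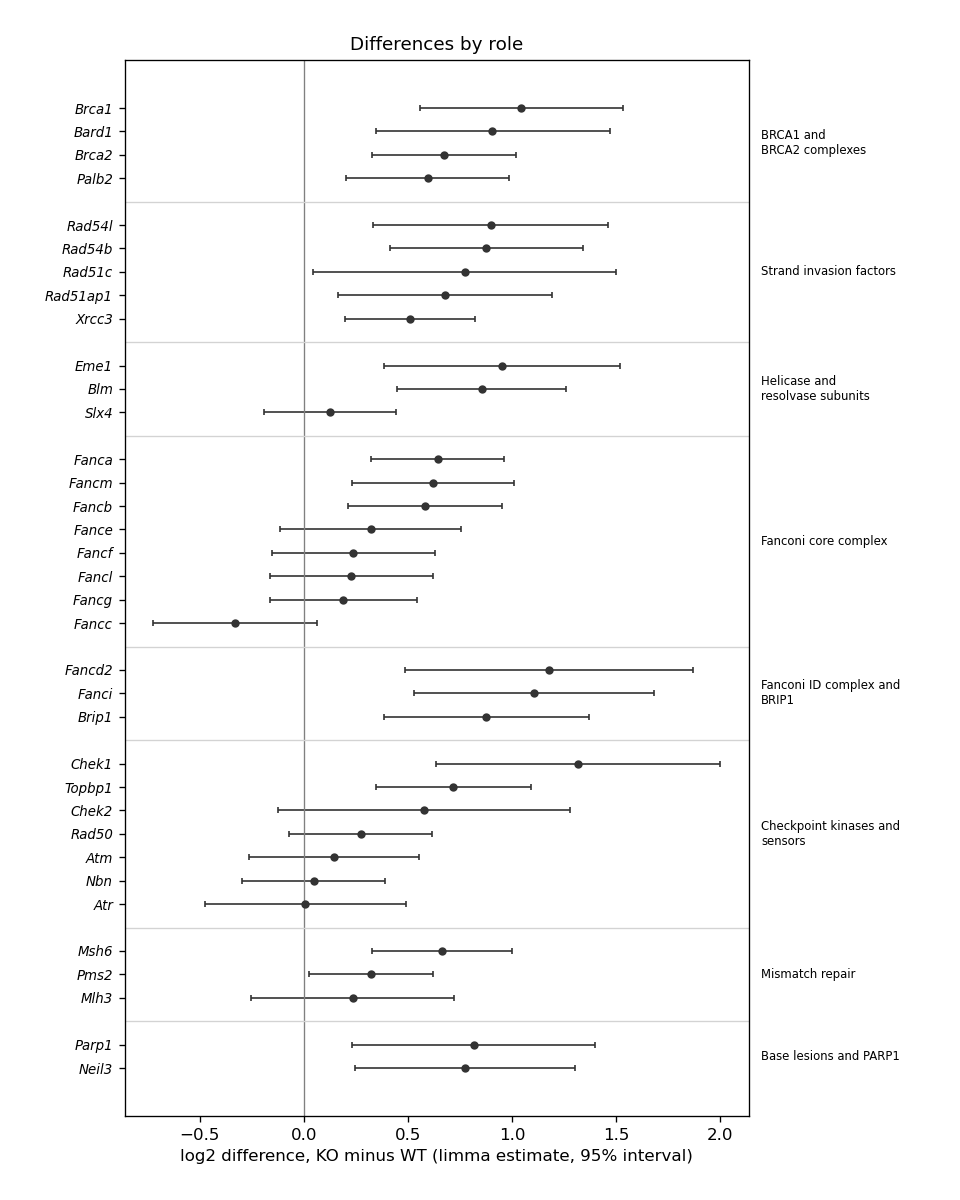
Each point is the log2 difference of 1 gene (KO minus WT, as labelled, x axis) and each bar its 95% interval from limma, unadjusted, for the 35 measured genes by role (y axis). *Chek1*, *Fancd2*, *Fanci* and *Brca1* lie at or above 1, *Atr*, *Nbn*, *Slx4* and *Atm* within 0.15 of 0, and *Fancc* at -0.33.

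The promoters of these genes were searched for short words, to see what they share beside their function. E2F factors drive genes of S phase, and 4 words of 8 letters were taken for their site on either strand, the first being TTTCCCGC, the second TTTCGCGC, the third TTTGCCGC and the fourth TTTGGCGC. RefSeq promoters (GRCm38.p6, 250 bases before to 50 after the start) were at hand for 31 of the 35 genes. An E2F word was found in 7 of them (22.6%), in 2.26% of all 32851 promoters and in 3.08% of the first promoters of 15563 measured genes. The 7 genes were *Bard1*, *Brca2*, *Rad51c*, *Fancg*, *Chek2*, *Topbp1* and *Msh6*. Their median difference was 0.67, and that of the 24 genes without the word was 0.61, with ranges from 0.19 to 0.91 and from -0.33 to 1.32 that overlap widely, and no test was made of these. *Chek1*, *Fanci* and *Brca1*, with some of the largest differences, have none of the words in this window, and *Fancg*, with one of the smallest, has one. The CCAAT box, whose word is CCAAT and which binds NF-Y, was in 19 of 31 (61.3%, against 37.4% of all promoters and 38.3% of measured genes), and the GC box GGGCGG in 20 (64.5%, against 35.7% and 49.9%). The CHR element of G2 and M phase genes (TTTGAA or the variant TTCGAA) was in 4 (12.9%, against 19.2% and 16.8%), and the NRF1 word GCGCATGCG in 1, that of *Fancm* (3.23%, against 1.75% and 2.63%). Words of different elements can share bases, as the GC box can with an E2F word. No test was made of these shares. The bases before the start of the gene with the smallest p in each role that has an E2F word there are shown, 5′ to 3′ on the gene's strand, with the word in capitals, since they set a gene with a difference near 0.7 (*Brca2*, chr5:150522371-150522620, plus strand, word 168 bases before the start; *Topbp1*, chr9:103305077-103305326, plus strand, word 129 bases before) beside one of 0.19 (*Fancg*, chr4:43010302-43010551, minus strand, word 52 bases before).
Brca2: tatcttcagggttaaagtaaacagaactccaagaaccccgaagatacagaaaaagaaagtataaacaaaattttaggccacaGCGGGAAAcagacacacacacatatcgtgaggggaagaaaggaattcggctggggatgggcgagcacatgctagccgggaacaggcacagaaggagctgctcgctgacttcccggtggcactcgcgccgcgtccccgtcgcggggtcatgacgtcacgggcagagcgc
Topbp1: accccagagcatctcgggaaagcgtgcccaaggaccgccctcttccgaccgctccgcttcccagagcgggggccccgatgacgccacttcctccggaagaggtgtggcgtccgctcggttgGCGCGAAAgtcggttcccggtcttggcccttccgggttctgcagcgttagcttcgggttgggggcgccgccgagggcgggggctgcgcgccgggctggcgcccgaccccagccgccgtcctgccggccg
Fancg: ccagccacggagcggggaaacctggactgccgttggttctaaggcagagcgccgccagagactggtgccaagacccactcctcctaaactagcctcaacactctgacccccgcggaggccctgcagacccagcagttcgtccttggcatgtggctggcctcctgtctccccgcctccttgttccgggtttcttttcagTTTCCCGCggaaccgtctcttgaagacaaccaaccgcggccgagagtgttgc

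Many repair genes begin back to back with a gene on the opposite strand, so that 1 stretch of DNA serves as the promoter of both. Such a neighbour, with a start within 1000 bases, was found for 12 of the 35 genes, and 11 neighbours were measured. The neighbours had no common direction. Means were higher in KO for 5 of them and lower for 6, where 41.2% of all genes had a higher mean. The median difference was -0.0077, beside -0.051 over all genes, and the repair genes paired with them had a median of 0.58. None of the neighbours passed limma's test over all genes. At an unadjusted p under 0.05, 0 were higher, against 5.88% of all genes, and 3 were lower, against 8.58%. For 9 of the 11 pairs the repair gene had the larger difference. With 34 of the 35 repair genes higher on average, this count does not bear on the shared promoters, and the pairs were not tested.

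*Brca1* and *Nbr1*, which encodes a receptor of selective autophagy, start 152 bases apart. *Nbr1* had 11.19 and 11.38 in WT and 11.24 and 11.08 in KO, a difference of -0.12 (SE 0.14, adjusted p = 0.697), which is 1.16 below that of *Brca1* and has groups that overlap. *Fancb* starts 217 bases from *Mospd2*, a gene of contacts between the endoplasmic reticulum and other membranes, which had 9.98 and 9.89 in WT and 9.56 and 9.39 in KO (-0.46, SE 0.14, adjusted p = 0.206), so the members of this pair lay on opposite sides of 0, without overlap in either. The same held for *Xrcc3* with *Zfyve21*, 291 bases away (10.18 and 10.03 in WT, 9.63 and 9.46 in KO, -0.56, SE 0.14, adjusted p = 0.149), and for *Rad51c* with *Tex14*, 111 bases away, a gene of the intercellular bridges of germ cells (6.59 and 6.47 in WT, 6.21 and 6.17 in KO, -0.34, SE 0.13, adjusted p = 0.307). *Tex14* was dim on these arrays, whose median gene read 8.19 or 8.34. Both arrays labelled KO lay below both WT arrays for 31.8% of all genes. *Palb2* starts 95 bases from *Dctn5*, a dynactin subunit (0.14, SE 0.13), *Rad51ap1* 379 bases from *D6Wsu163e* (-0.0077, SE 0.17) and *Eme1* 48 bases from *Mrpl27*, a protein of the mitochondrial ribosome (0.28, SE 0.19). Where the repair gene differed little, so did the neighbour in most pairs: *Atm* and *Npat*, an activator of histone genes 376 bases away, had 0.14 and 0.17, *Fancf* and *Gas2*, which overlap at their starts, 252 bases apart, 0.24 and 0.22, and *Atr* and *1700065D16Rik*, 80 bases away, 0.00745 and -0.11. *1700065D16Rik* was dim, with log2 values from 5.82 to 6.21, and a probe set with little signal can show little difference. *Pms2* (0.32) had a smaller difference than *Aimp2*, 162 bases away, a scaffold of tRNA synthetases (0.48, SE 0.22, adjusted p = 0.390). *Rad54l* starts 150 bases from the noncoding gene *2510003B16Rik*, which was not analysed here.

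**Figure D3:**
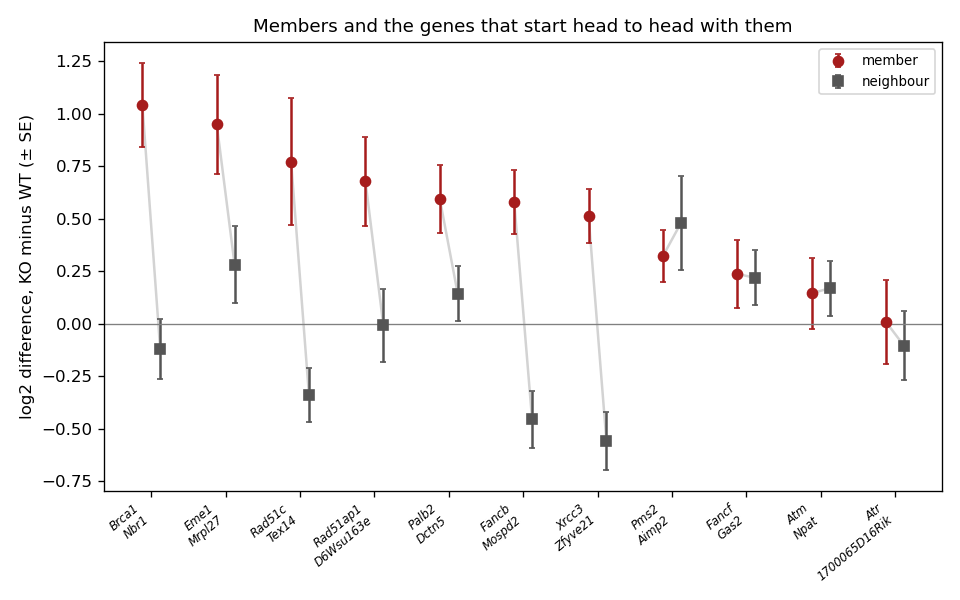
For each of 11 pairs, the log2 difference (KO minus WT, y axis) of the repair gene (red circle, upper name) is joined to that of the gene that starts head to head with it (grey square, lower name), and bars are the standard error from limma. *Brca1* at 1.04 and *Nbr1* at -0.12 are the pair farthest apart, and the pairs of *Pms2*, *Fancf*, *Atm* and *Atr* lie within 0.16 of each other.

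The stretches between both starts are shown for the 3 measured pairs with the smallest p of the repair gene and starts up to 250 bases apart, a choice made after the values were seen, because here 1 sequence stands beside 2 unlike readouts. They run 5′ to 3′ on the strand of the repair gene, with CCAAT on either strand in capitals. The stretch of *Brca1* (chr11:101551956-101552106, minus strand) has 1 such word 86 bases before the start, that of *Fancb* (chrX:164980376-164980591, plus strand) has 1 at 201 bases, and that of *Eme1* (chr11:94653744-94653790, minus strand) has 0.
Brca1 to Nbr1: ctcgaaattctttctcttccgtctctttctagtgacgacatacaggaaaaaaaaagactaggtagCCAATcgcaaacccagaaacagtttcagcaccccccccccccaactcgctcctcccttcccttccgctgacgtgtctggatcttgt
Eme1 to Mrpl27: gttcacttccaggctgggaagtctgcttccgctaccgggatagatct
Fancb to Mospd2: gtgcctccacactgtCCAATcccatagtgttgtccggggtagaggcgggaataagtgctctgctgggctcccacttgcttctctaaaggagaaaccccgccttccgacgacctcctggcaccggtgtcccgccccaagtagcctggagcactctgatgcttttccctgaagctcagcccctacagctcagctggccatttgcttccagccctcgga

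Other genes of DNA repair lay between the genes above and the rest of the genome. Of 141 further repair genes measured, in 7 lists, 112 lay higher in KO on average and 29 lower, where 41.2% of all genes lay higher. Their median difference was 0.20. After adjustment over all genes 0 passed. At an unadjusted p under 0.05, 40 were higher, against 5.88% of all genes, and 2 lower, against 8.58%. For 68 both arrays labelled KO were above both WT arrays, where 17.6% of all genes were, and for 10 below, where 31.8% were. The lists differed in their medians. Other mismatch repair genes had the highest (0.51 over 5 genes), then other genes of the checkpoint and break response (0.34 over 35), of the Fanconi pathway and lesion bypass (0.25 over 21), of recombination (0.23 over 30) and of base excision and PARPs (0.12 over 19). Nucleotide excision repair (0.057 over 20) and end joining (0.026 over 11) had the lowest. No test of these medians against each other was made.

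The genes with the smallest p in these lists were often partners of those above. *Exo1*, the nuclease that trims broken ends, had 7.19 and 7.96 in WT and 9.04 and 8.78 in KO (1.34, SE 0.26, adjusted p = 0.0873), and *Mms22l*, a factor of recombination at stalled forks, 0.72 (SE 0.13, adjusted p = 0.0825). Beside *Chek1*, *Clspn*, the adaptor through which ATR reaches CHEK1, had 6.84 and 7.46 in WT and 8.31 and 8.19 in KO (1.10, SE 0.22, adjusted p = 0.0912), and *Ticrr*, which works with TOPBP1 at replication origins, had 8.04 and 8.82 in WT and 9.80 and 9.70 in KO (1.32, SE 0.25, adjusted p = 0.0849). The groups of all 3 genes with values given here stood apart, where 17.6% of all genes were higher without overlap. *Uhrf1*, a ubiquitin ligase that binds hemimethylated DNA, had 1.26 (SE 0.26) and *Rad18*, the ligase that starts lesion bypass, 0.82 (SE 0.22), with adjusted p of 0.102 and 0.168. *Lig1*, the ligase of replicated strands, had 1.06 (SE 0.23) and *Pold1*, the catalytic subunit of DNA polymerase delta, 0.68 (SE 0.16), with 0.109 and 0.130. *Apex1*, the nuclease of abasic sites, had 0.70 (SE 0.19, adjusted p = 0.166). In end joining, *Xrcc6* and *Xrcc5*, which encode the Ku proteins, had 0.73 (SE 0.19, adjusted p = 0.167) and 0.64 (SE 0.23, adjusted p = 0.277), unlike the median of that list. In nucleotide excision repair the smallest p values belonged to *Gtf2h3* and *Gtf2h4*, subunits of the factor TFIIH (0.36 and 0.39, adjusted p = 0.404 and 0.442). *Parp3*, a PARP of the break response, lay on the other side, with 9.34 and 9.50 in WT and 8.71 and 8.59 in KO (-0.77, SE 0.14, adjusted p = 0.0737), opposite in direction to *Parp1*.

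Markers of proliferation and of meiosis were set beside these lists. All 14 measured proliferation markers had higher means in KO. Their median difference was 0.96, and it was 1.29 against WT replicate 1 and 0.58 against WT replicate 2. *Mki67*, which encodes the antigen Ki-67 of cycling cells, had 11.12 and 11.24 in WT and 11.89 on both arrays labelled KO (0.71, SE 0.13, adjusted p = 0.0780), and *Tyms*, the enzyme of thymidylate synthesis, 0.99 (SE 0.18, adjusted p = 0.0825). The recombination, Fanconi and checkpoint genes had the same order of arrays. Their median deviation from each gene's mean was -0.44 in WT replicate 1, -0.14 in WT replicate 2, 0.43 in KO replicate 1 and 0.21 in KO replicate 2, and that of the proliferation markers was -0.82, -0.088, 0.54 and 0.40. Genes of recombination in meiosis, which germ cells use, were mostly dim on these arrays, with a median log2 level from 6.12 to 6.22 on each array, and probe sets with little signal can show little difference. Of 12, 3 had a higher mean and 9 a lower one, with a median difference of -0.019. *Sycp3*, a protein of the synaptonemal complex, had -0.31 (SE 0.17, adjusted p = 0.435) and *Psmc3ip* 0.27 (SE 0.20, adjusted p = 0.541). The part of the proliferation markers in the difference of the repair genes was not tested.

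**Figure D4:**
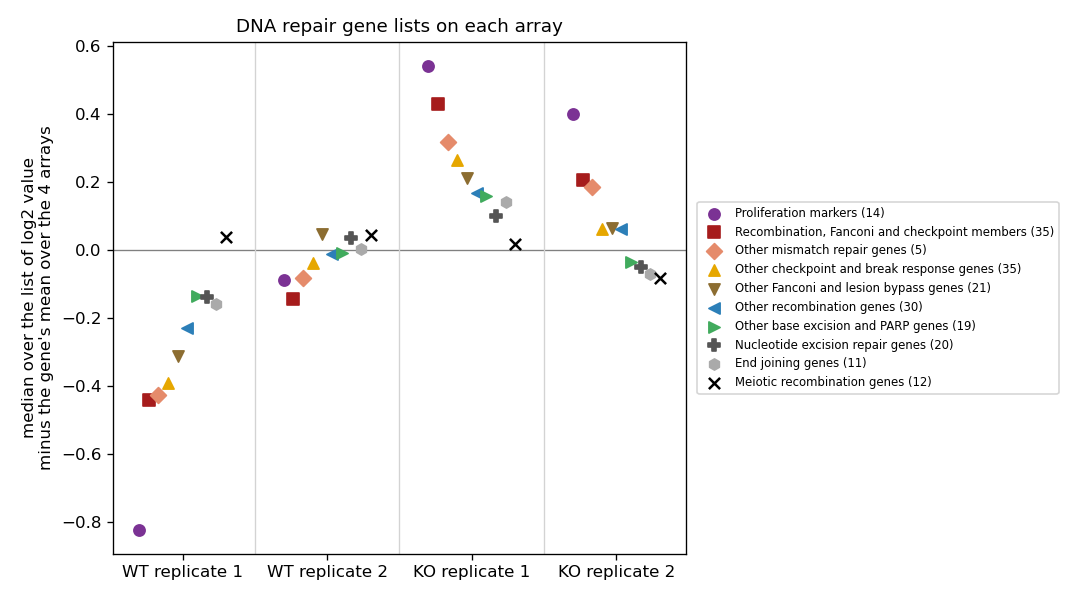
For each array (x axis), each point is the median over 1 gene list of log2 values centred gene by gene on the mean over the 4 arrays (y axis), with the number of measured genes in the key. The 35 recombination, Fanconi and checkpoint genes lie at -0.44, -0.14, 0.43 and 0.21, on the same side of 0 as the proliferation markers in each array, while end joining and nucleotide excision repair genes stay nearer 0.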

How the data were processed

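Total RNA from whole lungs was labelled with biotin and hybridised to Affymetrix arrays. The deposited values, 1 per array for each of 30177 probe sets, are on a log2 scale. Per the processing notes, the authors used RMA and Affymetrix Expression Console (versions not given in the sources used here). RMA subtracts background, forces the arrays to a like distribution and combines probes, which can shrink differences of dim genes. No reads were counted, so the number of arrays, 2 in each group, limits the precision. With 2 against 2 an exact permutation test cannot go below p = 0.333.

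Names of probe sets came from the platform annotation (1 symbol for 21789, several for 1621, unnamed here 6767), and the brightest stood for a gene. Groups came from the sample titles. All 19938 genes were fitted as KO minus WT with limma 3.58.1 in R 4.3.3 (lmFit, eBayes, residual degrees of freedom 2, prior 4.42) with Benjamini-Hochberg adjustment over all genes and a threshold of 0.05. The code was tested on simulated data. Intervals are 95% and unadjusted. Members and gene lists were chosen with earlier results of these data known.

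All 35 measured members matched RefSeq (GRCm38.p6) by Entrez ID. Every member is named, with values on all arrays for the 2 with the smallest p in each role and for members with a lower mean in KO, and 2 genes of each further list. Python 3.11.15 with matplotlib 3.10.9 drew the figures. The alternatives were the replicate block, centring, cyclic loess, a filter on dim genes, the mean of probe sets, trend and robust, leaving out each array and a threshold of 0.10. A crossed pairing and counts against single WT arrays were added after the values were seen.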

Additional observations from a re-analysis of the deposited data

How the results depend on the processing

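The count of recombination, Fanconi and checkpoint genes that rose, 0 with all arrays, is given with that of all genes, 16 with all arrays, since calls grew more frequent over the whole genome under most alternatives. It was 2 with each array centred on its median (*Blm* and *Brca1*, all genes 73), 1 with cyclic loess (*Blm*, 70), 2 without the dimmest 40 percent of genes (*Brca1* and *Chek1*, 74, with *Palb2* not among those tested) and 2 at an adjusted p under 0.10 (*Brca1* and *Blm*, 107). Leaving out 1 array gave counts from 0 to 26 (all genes 0 to 3321), and the count that fell went from 0 to 1 (all genes 0 to 2971). The mean of all probe sets and trend with robust called none (15 and 25), with 23 and 22 higher at an unadjusted p under 0.05. The replicate block called 9 (241). The deviations from the group means had r = -0.238 over genes for same-numbered arrays and 0.238 for the crossed pairing. With 2 arrays in each group these values must mirror each other, so they cannot settle whether the numbers pair the samples. The crossed pairing also called 9 (207). The median difference lay between 0.461 and 0.762 under all alternatives. Cyclic loess moved the median of all genes from -0.0505 to 0.0023.

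Differences near 0 turned in sign: *Atr* with cyclic loess (-0.0362) and from -0.231 to 0.245 when 1 array was left out, *Nbn* with the mean of its probe sets (-0.0717) and from -0.0791 to 0.172, *Atm* from -0.0592 to 0.349 and *Mlh3* from -0.0316 to 0.499. The cause was not tested. No other difference of the 35 genes changed sign.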
